A study of Mus musculus with 6 samples.

Results

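Krüppel-like factors (KLFs) are transcription factors that bind GC-rich and CACCC sequences through zinc fingers at the end of the protein, as the related SP factors do. They differ mainly in the regions that recruit partners: some recruit acetyltransferases and mostly activate, some bind the corepressor CtBP, and some bind the corepressor Sin3A. In fibroblasts and vascular cells several KLF genes respond quickly to serum, shear stress, TGF-β or glucocorticoids, and the proteins are known for roles in proliferation, quiescence and differentiation. The 10 genes described here are Klf2, Klf3, Klf4, Klf5, Klf6, Klf7, Klf9, Klf10, Klf13 and Klf15. They were taken by symbol from a list of names that was chosen with earlier results of these data known. They are 10 of 17 listed KLF genes and 10 of the 55401 genes in the count tables, and all 10 passed the filter on low counts that left 18539 genes for testing.

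Poly(A) RNA was sequenced from NIH3T3 cells, a mouse fibroblast line, in 6 libraries. TAZ-CAMTA1 (TC) is the fusion of the coactivator TAZ with CAMTA1 that is found in epithelioid hemangioendothelioma, and aurintricarboxylic acid (ATA) is the compound that the study picked for its effect on the binding of TAZ to TEAD. The question was how the transcriptome differed with the fusion, and how ATA moved it in cells that carry the fusion. EV cells carried an empty vector and received DMSO (2 libraries), TC cells carried TAZ-CAMTA1 and received DMSO (1 library), and TC + ATA cells carried TAZ-CAMTA1 and received 10 μM ATA (3 libraries). All were seeded for 16 h and then kept for 48 h with DMSO or ATA. The paper describes the TC cells as stable expressers of the fusion, no group of EV cells with ATA was sequenced, and the paper says that its assays on treated cells were repeated, but no source says which libraries of a group came from separate repeats, cultures or clones, so p-values measure only the spread between these libraries. Totals ran from 58471484 to 74413193 counts per library, and the floor was 3 counts per library, 5.13e-06% of the smallest total. Bulk counts cannot tell a change in the share of cells from a change in RNA per cell.

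The EV libraries stood further apart than the TC + ATA libraries did. Across genes, the chi-square statistic per degree of freedom was 61.3 between both EV libraries and 5.86 to 6.61 between pairs of TC + ATA libraries. It was 22.8 to 24.7 between TC and each TC + ATA library and 220 to 263 between EV and the other libraries. So TC lay closer to TC + ATA than one EV library lay to the other. In the model the spread came from EV and TC + ATA alone, with 3 residual degrees of freedom, and TC was assumed to vary like them.

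The libraries carried the profile of a fibroblast line. The 9 fibroblast markers summed to 16853 and 14705 CPM (counts scaled by library total and TMM factor) in EV, 18594 CPM in TC and 19393, 19145 and 18208 CPM in TC + ATA, with Col1a2 the most abundant at 5128 to 7229 CPM. Of the 9, 2 were called higher and 3 lower in TC versus EV at an adjusted p of at most 0.05 in edgeR, where 14.8% of all tested genes were called higher and 13.2% lower. The intermediate filament gene Vim rose by 0.64 on the log2 scale (adjusted p = 0.00658) and Col1a1 rose by 0.53 (adjusted p = 0.0103). The surface marker Thy1 fell by 1.47 (adjusted p = 1.03e-05), the receptor gene Pdgfra fell by 1.20 (adjusted p = 1.31e-05) and Fn1 fell by 0.83 (adjusted p = 0.00259). With only EV and TC in the fit, the calls of Vim (0.224), Col1a1 (0.329) and Fn1 (0.0768) were lost. Vim (0.0915) and Col1a1 (0.146) were also lost with a replicate block, and Col1a1 without TC + ATA replicate 2 (0.0505). Over 13 alternatives, which are other settings of the fit, the adjusted p ran from 5.28e-08 to 0.224 for Vim, 6.70e-07 to 0.329 for Col1a1 and 2.20e-09 to 0.0768 for Fn1. In TC + ATA versus EV 5 of the 9 were called higher and 2 lower, beside 18.0% and 18.6% of all tested genes. These were Col1a1 (log2 fold change 0.42), Col1a2 (0.40), Vim (0.43), Pdgfrb (0.32), S100a4 (0.49), Thy1 (-1.24) and Pdgfra (-1.22). The calls of Pdgfrb, Thy1 and Pdgfra were kept in 13 of 13 alternatives, those of Col1a1, Col1a2 and Vim in 10 each and that of S100a4 in 8. The value of S100a4 was 0.79 without EV replicate 1 and 0.25 without EV replicate 2.

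Most markers of other cell types were low, and the endothelial and the epithelial sum were higher in every library with the fusion than in EV. The 5 endothelial markers, none at 0, summed to 2.29 and 1.64 CPM in EV, 3.62 CPM in TC and 3.34, 3.37 and 2.75 CPM in TC + ATA, with Pecam1 or, in TC, Cdh5 the most abundant. Of these Cdh5 alone was called in TC versus EV (log2 fold change 1.55, adjusted p = 0.0385, called in 7 of 12 alternatives with 0.00520 to 0.142), and Kdr alone in TC + ATA versus EV (1.13, adjusted p = 0.0349, called in 6 of 12 alternatives with 0.0314 to 0.142). These single calls among 5 genes stand beside 14.8% and 18.0% of all tested genes called higher. The log2 fold change of Cdh5 in TC versus EV was 2.16 without EV replicate 1 and 1.12 without EV replicate 2. The 5 epithelial markers, of which 2 or 3 were at 0 in each library, summed to 1.99 and 1.30 CPM in EV, 3.52 CPM in TC and 2.41, 2.47 and 3.75 CPM in TC + ATA, nearly all of it Krt14 (1.09 in TC versus EV, adjusted p = 0.0486, called in 5 of 13 alternatives with 0.00552 to 0.0936). The 4 immune markers summed to 6.30 and 6.71 CPM in EV, 5.17 CPM in TC and 2.83, 7.80 and 8.51 CPM in TC + ATA, with Ptprc or Cd68 the most abundant and none of the 3 tested called against EV. Of the 3 skeletal muscle markers only Ckm was above 2 CPM, at 99.4 and 71.0 CPM in EV, 93.9 CPM in TC and 134, 113 and 110 CPM in TC + ATA. It was called higher in TC + ATA versus EV (0.48, adjusted p = 0.0227, lost only without TC + ATA replicate 1 with 0.0802, in a range of 3.82e-05 to 0.0802 over 13 alternatives), and its log2 fold change was 0.73 without EV replicate 1 and 0.27 without EV replicate 2. The part of these markers in the KLF values was not tested.

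Compared per kb of exon, the 10 genes fell into a clear order in EV. Klf4 stood highest with a mean of 26.1 CPM per kb (SD 0.781), followed by Klf6 with 20.2 (SD 0.353), Klf9 with 15.2 (SD 0.394), Klf10 with 10.8 (SD 0.0982) and Klf3 with 7.02 (SD 0.194). Klf13 had 4.17, Klf5 3.70, Klf2 3.41, Klf7 2.56 and Klf15 0.129 CPM per kb, and the libraries of Klf5 and Klf2 overlapped. In TC + ATA, Klf4 (36.4, SD 1.16) and Klf6 (33.1, SD 1.79) again led. Klf9 (14.2), Klf10 (10.2) and Klf3 (8.05) followed, and the libraries of Klf2 (7.23), Klf13 (7.04) and Klf5 (6.44) overlapped in part. The single TC library had 31.5 for Klf4, 30.1 for Klf6, 8.24 for Klf5 and 7.04 CPM per kb for Klf3. Klf5 thus lay below Klf3 in EV and above it in TC.

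Summed over the 10 genes, the level was 437 and 451 CPM in EV, 541 CPM in TC and 569, 589 and 593 CPM in TC + ATA. Every library with the fusion lay above both EV libraries, and every TC + ATA library lay above TC. The plot of levels by library shows that the sum hides unlike patterns.

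**Figure D1:**
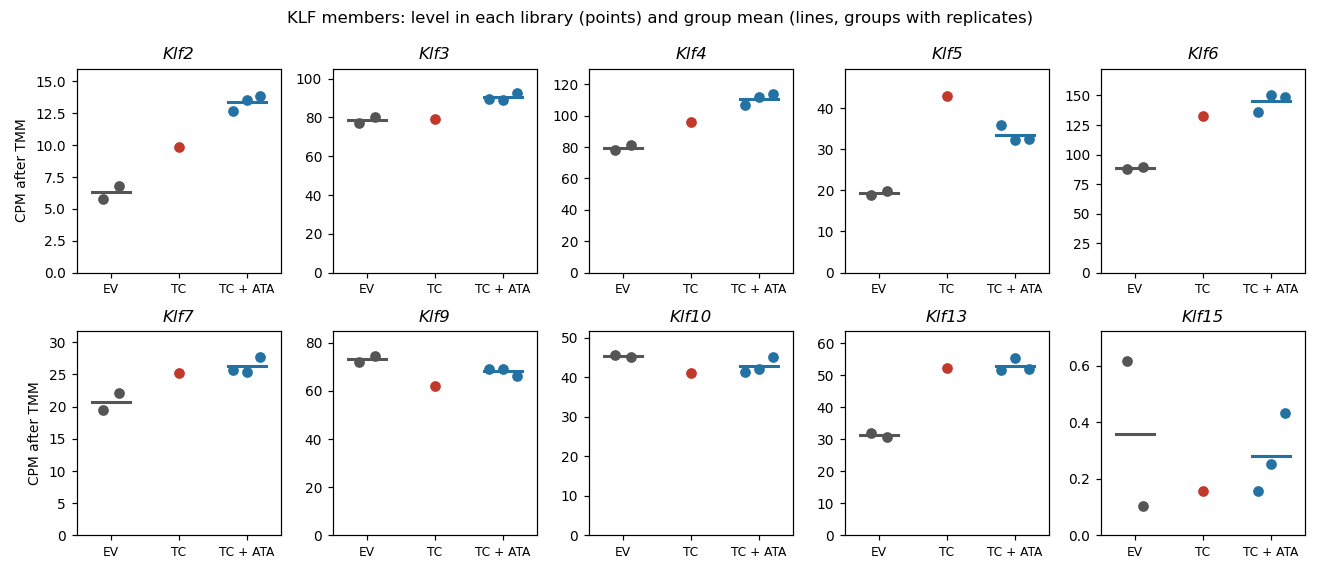
Level of each of the 10 KLF genes in CPM after TMM (vertical axes, each from 0) in the EV, TC and TC + ATA libraries; points are libraries and lines are means of groups with replicates. Klf5 peaks in TC at 42.9 CPM, Klf2 climbs from EV over TC to TC + ATA, Klf13 is alike in TC and TC + ATA, and Klf15 stays under 1 CPM.

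Klf5 (ENSMUSG00000005148, chr14:99298691-99315036 in GRCm38, plus strand) belongs to the activating group and is known to promote proliferation in epithelial and smooth muscle cells. Its level was 18.8 and 19.7 CPM in EV, 42.9 CPM in TC and 35.8, 32.2 and 32.4 CPM in TC + ATA. TC was the highest library, both EV libraries were the lowest, and TC + ATA lay between without overlap. Klf5 rose 2.23-fold in TC versus EV, the largest increase among the 10 (log2 fold change 1.15, SE 0.10, adjusted p = 3.67e-05, edgeR). Against EV it also rose in TC + ATA, by 0.80 (SE 0.08, adjusted p = 5.75e-05). Between TC + ATA and TC the log2 fold change was -0.36 (SE 0.09, unadjusted p = 0.00398, adjusted p = 0.183 in edgeR), which did not pass. Klf5 was the only one of the 10 with every TC + ATA library below TC.

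The 3 genes with the most similar pattern over the 6 libraries were Vps37b (Euclidean distance 0.139 in centred log2 CPM), Abl2 (0.140) and Jmjd4 (0.143), among 10423 genes. Vps37b averaged 25.3 CPM in EV, 50.1 CPM in TC and 42.3 CPM in TC + ATA. Abl2 averaged 90.3, 187 and 155 CPM in the same order.

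Klf2 (ENSMUSG00000055148, chr8:72319033-72321656, plus strand) and Klf4 (ENSMUSG00000003032, chr4:55527143-55532466, minus strand), both activators, are best known from endothelium, where they are linked to quiescence. Klf2 was at 5.79 and 6.82 CPM in EV, 9.88 CPM in TC and 12.7, 13.5 and 13.8 CPM in TC + ATA. The groups did not overlap, and the ATA-treated libraries were the highest. Klf2 rose 1.57-fold in TC versus EV (log2 fold change 0.65, SE 0.14, adjusted p = 0.00746) and 2.12-fold in TC + ATA versus EV (1.08, SE 0.11, adjusted p = 6.30e-05). For TC + ATA versus TC its log2 fold change was 0.44 (SE 0.13, unadjusted p = 0.00979, adjusted p = 0.286 in edgeR).

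Klf4 had 77.9 and 81.3 CPM in EV, 96.2 CPM in TC and 107, 112 and 114 CPM in TC + ATA. As for Klf2, the order was EV, TC, TC + ATA with no overlap, on a smaller scale. Klf4 rose in TC + ATA versus EV (log2 fold change 0.48, SE 0.06, adjusted p = 0.000310). Its rise in TC versus EV was smaller (0.27, SE 0.08, adjusted p = 0.0332) and passed in 7 of 13 alternatives, with adjusted p from 0.00233 to 0.296. It was lost, among others, with only EV and TC in the fit (0.296), with scaling by library size only (0.245) and without TC + ATA replicate 1, 2 or 3 (0.0737, 0.0950 and 0.0793). The scaling by library size moved the median of all genes by -0.11 in TC versus EV, and the log2 fold change of Klf4 to 0.16. For TC + ATA versus TC the log2 fold change of Klf4 was 0.21 (SE 0.08, unadjusted p = 0.0255, adjusted p = 0.419).

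Klf6 (ENSMUSG00000000078, chr13:5861482-5870394, plus strand), an activator that is widely expressed and induced by injury, had the highest CPM of the 10 in all 6 libraries. It stood at 87.4 and 89.6 CPM in EV, 132 CPM in TC and 136, 150 and 149 CPM in TC + ATA. All libraries with the fusion lay above both EV libraries. Klf6 rose in TC versus EV (log2 fold change 0.58, SE 0.09, adjusted p = 0.00113) and in TC + ATA versus EV (0.71, SE 0.07, adjusted p = 4.63e-05). The difference between TC + ATA and TC was 0.13 (SE 0.08, adjusted p = 0.672).

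Klf7, an activator studied mostly in neurons and adipocytes, had 19.4 and 22.2 CPM in EV, 25.3 CPM in TC and 25.7, 25.3 and 27.7 CPM in TC + ATA. TC and the lowest TC + ATA library were nearly equal, and both EV libraries were lower. Between TC and EV the log2 fold change was 0.28 (SE 0.11, adjusted p = 0.0993), and without EV replicate 2 it was 0.38 and passed (adjusted p = 0.0103; over 13 alternatives 0.0103 to 0.421). Without EV replicate 1 it was 0.18. Klf7 rose in TC + ATA versus EV (0.34, SE 0.09, adjusted p = 0.0137), a call that was kept in 10 of 13 alternatives (adjusted p from 0.00111 to 0.104) and lost, among others, with scaling by library size only (0.104) and without TC + ATA replicate 3 (0.0668).

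Among the genes whose proteins bind Sin3A, Klf13 (ENSMUSG00000052040, chr7:63886351-63938915, minus strand) stood apart from Klf9 and Klf10. Klf13, known as a regulator of the chemokine gene Ccl5 in lymphocytes, had 32.1 and 30.7 CPM in EV, 52.3 CPM in TC and 51.6, 55.4 and 52.1 CPM in TC + ATA. The TC value fell inside the range of TC + ATA, and all libraries with the fusion were well above EV. Klf13 rose in TC versus EV (log2 fold change 0.73, SE 0.09, adjusted p = 0.000251) and in TC + ATA versus EV (0.76, SE 0.07, adjusted p = 2.99e-05). Between TC + ATA and TC the difference was 0.021, with a 95% confidence interval from -0.16 to 0.21.

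Klf9, induced by glucocorticoids and thyroid hormone, was at 72.0 and 74.7 CPM in EV, 62.1 CPM in TC and 69.2, 69.1 and 66.2 CPM in TC + ATA. TC was the lowest library and EV the highest, without overlap. Between TC and EV the log2 fold change was -0.24 (SE 0.08, unadjusted p = 0.0156, adjusted p = 0.0543 in edgeR), just outside the limit. It passed in 5 of 13 alternatives, with adjusted p from 0.00287 to 0.385. These were scaling by library size only (-0.35), upper quartile scaling (-0.25), a filter of at least 1 CPM in 2 libraries (-0.22) and the fits without EV replicate 1 (-0.28) or EV replicate 2 (-0.22). Klf9 had -0.11 between TC + ATA and EV (adjusted p = 0.203). Klf9 had -0.069 there without EV replicate 2 and -0.19 with scaling by library size only. Without EV replicate 1 it had -0.15 and passed (adjusted p = 0.0270; over 13 alternatives 0.0270 to 0.591).

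Klf10, first described as a TGF-β-inducible early gene, was at 45.6 and 45.0 CPM in EV, 41.1 CPM in TC and 41.3, 42.0 and 45.0 CPM in TC + ATA. The lowest library was TC, and the highest TC + ATA library lay just under the lower EV library. No comparison passed for Klf10, with log2 fold changes of -0.14 between TC and EV, 0.056 between TC + ATA and TC and -0.084 between TC + ATA and EV. With scaling by library size only, Klf10 had -0.25 between TC and EV and -0.17 between TC + ATA and EV. Between TC + ATA and TC it had 0.019 without TC + ATA replicate 3 and 0.016 with a replicate block. None of these values was called.

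Klf3, which represses through CtBP, was at 77.3 and 80.4 CPM in EV, 79.2 CPM in TC and 89.8, 89.1 and 92.8 CPM in TC + ATA. TC lay between the EV libraries, and the ATA-treated libraries were above all others. Between TC and EV the log2 fold change was 0.0048 (adjusted p = 0.974; -0.10 with scaling by library size only, not called either), and it was 0.19 in TC + ATA versus TC (SE 0.07, unadjusted p = 0.0294, adjusted p = 0.443). Klf3 rose in TC + ATA versus EV (0.20, SE 0.06, adjusted p = 0.0266). That call was kept in 8 of 13 alternatives (adjusted p from 0.00203 to 0.248) and lost, among others, with scaling by library size only (0.248) and without TC + ATA replicate 1, 2 or 3 (0.0873, 0.0913 and 0.113). The log2 fold change of Klf3 there was 0.11 with scaling by library size only, and 0.21, 0.21 and 0.18 without TC + ATA replicate 1, 2 or 3. The annotation places 404 of the 11243 exonic bases of Klf3 opposite exons of Gm20033, and the sources used here do not give the strand setting of the counts.

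Klf15, a glucocorticoid-induced regulator of metabolism in muscle and fat, was close to the floor. Its counts were 46 and 8 in EV, 11 in TC and 9, 18 and 30 in TC + ATA. The highest and the lowest library were both EV, so the groups overlapped. Between TC and EV the log2 fold change was -1.17 with a 95% confidence interval from -3.60 to 1.26 (adjusted p = 0.470), and it turned to 0.57 without EV replicate 1. Between TC + ATA and EV it was -0.34 and turned to 1.41 without EV replicate 1, so its direction rested on that library. Without EV replicate 2, TC + ATA replicate 1 or TC + ATA replicate 3 the latter value was -1.10, -0.068 or -0.78. The 3 adipocyte markers, none at 0, summed to 0.374 and 0.0918 CPM in EV, 0.216 CPM in TC and 0.211, 0.381 and 0.417 CPM in TC + ATA, with Cidec, Adipoq or Plin1 the most abundant. Klf15 had 0.615, 0.105, 0.158, 0.158, 0.254 and 0.431 CPM in the same order, and any part of such RNA in its level was not tested.

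Counted over the 10 genes, 5 were called higher in TC versus EV at an adjusted p of at most 0.05 in edgeR (Klf2, Klf4, Klf5, Klf6 and Klf13), where 14.8% of all tested genes were called higher. The call was kept in 13 of 13 alternatives, the fold limit below aside, for Klf2, Klf5, Klf6 and Klf13. No KLF gene of the 10 was called lower, against 13.2% of all tested genes. Klf12, a KLF gene outside the 10, was called lower here and in TC + ATA versus EV. The 10 were chosen with earlier results of these data known, so their counts in each comparison are descriptive only. At an unadjusted p under 0.05 the count was 6 higher and 1 lower, beside 19.4% and 19.0% of all tested genes, and DESeq2 called 5 higher and 0 lower, beside 14.6% and 12.7%. With the study's further limit of an absolute log2 fold change above 2, 0 of the 10 passed by edgeR, against 3.64% of all tested genes. The median log2 fold change of the 10 was 0.28, and that of all tested genes was -0.026.

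In TC + ATA versus EV, the comparison with replicates on both sides, 7 of the 10 were called higher (Klf2, Klf3, Klf4, Klf5, Klf6, Klf7 and Klf13) and 0 lower, against 18.0% and 18.6% of all tested genes. The count at an unadjusted p under 0.05 was 7 higher and 0 lower, beside 21.8% and 23.3% of all tested genes, and DESeq2 also called 7 higher and 0 lower, beside 17.9% and 16.3%. The median was 0.41, beside -0.011 for all tested genes.

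In TC + ATA versus TC, edgeR called 0 of the 10 higher and 0 lower, with 0.426% and 0.156% of all tested genes called. At an unadjusted p under 0.05, 3 were higher (Klf2, Klf3 and Klf4) and 1 was lower (Klf5), beside 5.65% and 3.95% of all tested genes. DESeq2 called 0, beside 1.27% and 0.453%. When only the TC and TC + ATA libraries entered the edgeR fit, the same 4 genes passed, with adjusted p = 0.0214 for Klf2, 0.0260 for Klf3, 0.0231 for Klf4 and 0.00984 for Klf5. That fit called 4.42% of its 18000 genes higher and 3.52% lower. They also passed without EV replicate 1 or EV replicate 2, and in none of the other 10 of 13 alternatives, where the adjusted p reached 0.957, 0.968, 0.977 and 0.893. All TC + ATA libraries lay above TC for 7 of the 10 and below it for 1, against 30.5% and 32.7% of all tested genes. Each of the 10 was set against the same single TC library. The lowest TC + ATA library was only just above TC for Klf7 (25.293 against 25.255 CPM) and Klf10 (41.282 against 41.146 CPM). The median log2 fold change was 0.13, beside 0.0033 for all tested genes.

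The TC library enters both its comparison with EV and the one with TC + ATA, in opposite roles, and the EV libraries enter both comparisons with EV. The values of each comparison stand side by side in the plot of differences, and no relation between them was computed.

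**Figure D2:**
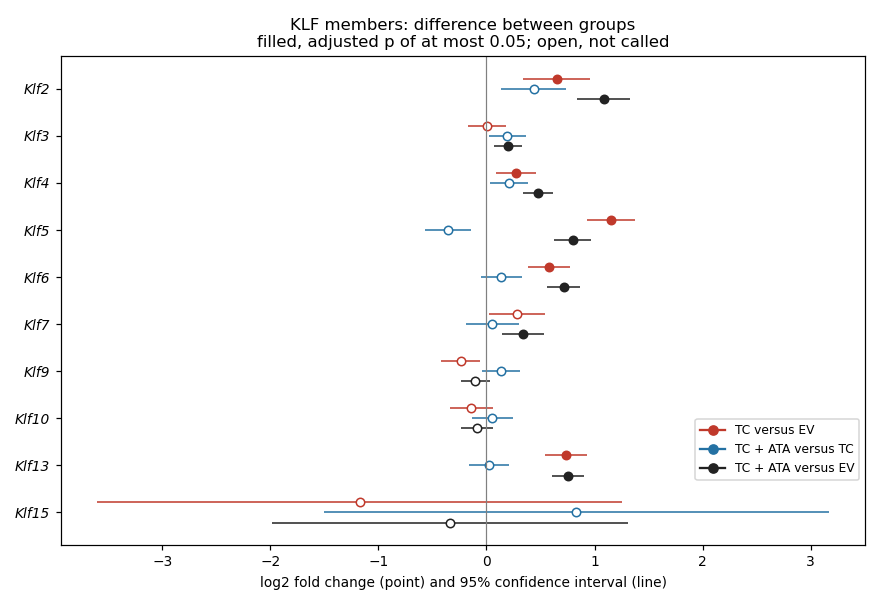
Log2 fold change (horizontal axis, points) with 95% confidence interval (lines) of each of the 10 KLF genes in TC versus EV (red), TC + ATA versus TC (blue) and TC + ATA versus EV (black); filled points passed at an adjusted p of at most 0.05. Klf5 is at 1.15 in red and at -0.36 in blue, Klf2 reaches 1.08 in black, and the interval of Klf15 in red runs from -3.60 to 1.26.

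Of the 7 other KLF genes on the list, Klf11, Klf12 and Klf16 passed the filter. Klf12 (ENSMUSG00000072294, chr14:99870632-100284679, minus strand), a CtBP-binding repressor like Klf3, showed the widest difference of all KLF genes tested. Its counts were 486 and 529 in EV, 44 in TC and 41, 68 and 55 in TC + ATA. The EV libraries stood far above all libraries with the fusion. Klf12 fell by 3.40 on the log2 scale in TC versus EV (SE 0.28, adjusted p = 3.38e-05), past the limit of 2, and fell by 3.02 in TC + ATA versus EV (SE 0.18, adjusted p = 2.69e-06). Klf12 had 0.38 between TC + ATA and TC (SE 0.27, adjusted p = 0.713), and its calls against EV were kept in 13 of 13 alternatives each.

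Klf16, a Sin3A-binding repressor, was at 30.4 and 27.6 CPM in EV, 42.7 CPM in TC and 34.0, 36.0 and 35.5 CPM in TC + ATA. Like Klf5, it was highest in TC and lowest in EV. Klf16 rose in TC versus EV (log2 fold change 0.56, SE 0.09, adjusted p = 0.00216) and had -0.28 in TC + ATA versus TC (SE 0.09, unadjusted p = 0.0119, adjusted p = 0.311). Its rise in TC + ATA versus EV (0.28, adjusted p = 0.0146) was kept in 9 of 13 alternatives (0.00132 to 0.0971) and lost, among others, with scaling by library size only (0.0625) and without TC + ATA replicate 2 or 3 (0.0708 and 0.0620). Klf11 did not pass in any of these comparisons. The genes Klf1, Klf8, Klf14 and Klf17 had at most 8 counts in any library.

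The SP factors share the zinc finger type, and Sp1, Sp2, Sp3 and Sp4 were tested while Sp5, Sp6, Sp7, Sp8 and Sp9 did not pass the filter. Sp2 rose in TC versus EV (log2 fold change 0.44, SE 0.10, adjusted p = 0.00984) and Sp3 fell by 0.52 on the log2 scale (SE 0.12, adjusted p = 0.0104). Sp2 lost its call with only EV and TC in the fit (0.0703) and with a replicate block (0.0939), and Sp3 with a replicate block (0.0662), in ranges of 0.00123 to 0.0939 and 4.26e-06 to 0.0662 over 13 alternatives. Sp1 and Sp4 were not called there, so that 1 of the 4 was higher and 1 lower, beside 14.8% and 13.2% of all tested genes. In TC + ATA versus TC none of the 4 was called by edgeR (0.426% of all tested genes higher, 0.156% lower) or DESeq2 (1.27% and 0.453%). There 0 of the 4 had an unadjusted p under 0.05 (5.65% and 3.95% of all). In TC + ATA versus EV 1 was higher (Sp2) and 2 were lower (Sp3 and Sp4), beside 18.0% and 18.6%. DESeq2 called 1 higher and 1 lower there, beside 17.9% and 16.3%.

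**Figure D3:**
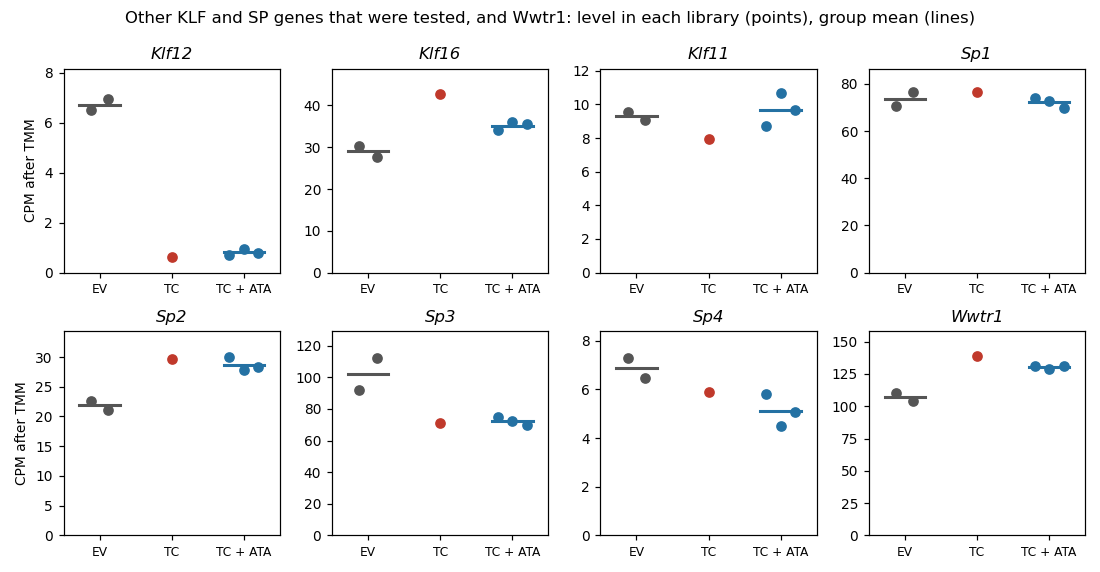
Level in CPM after TMM (vertical axes, each from 0) of the other tested KLF genes, the tested SP genes and Wwtr1 in the EV, TC and TC + ATA libraries; points are libraries and lines are means of groups with replicates. Klf12 stands at 6.50 and 6.94 CPM in EV and below 1 CPM in every library with the fusion.

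The fusion partner Wwtr1, the mouse gene for TAZ, rose in TC versus EV (log2 fold change 0.37, SE 0.08, adjusted p = 0.00697). Camta1 had 0.16 (adjusted p = 0.411), with 18.9 CPM in EV replicate 1, 15.4 CPM in EV replicate 2 and 19.2 CPM in TC. What part of these counts came from the introduced construct was not tested. The call of Wwtr1 was lost with only EV and TC in the fit (0.132) and with a replicate block (0.106), in a range of 5.69e-05 to 0.132 over 13 alternatives.

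Genes that act around the KLFs were counted from lists, to be read beside the 14.8% of all tested genes called higher and the 13.2% called lower in TC versus EV and their median of -0.026. Of 13 cofactor genes (median -0.078), Ep300 rose in TC versus EV (log2 fold change 0.26) and Ctbp1 (-0.33), Hdac3 (-0.32) and Hdac2 (-0.28) fell, so that 1 was higher and 3 lower. These 4 calls were small and all were lost with only EV and TC in the fit (adjusted p = 0.306, 0.369, 0.226 and 0.375). Over 13 alternatives their adjusted p ran from 0.00307 to 0.306 for Ep300, 0.000179 to 0.369 for Ctbp1, 0.00109 to 0.226 for Hdac3 and 0.000196 to 0.375 for Hdac2. Each was also lost without at least 1 TC + ATA replicate: without replicate 2 the adjusted p was 0.0906 for Ep300, 0.0896 for Ctbp1, 0.0550 for Hdac3 and 0.100 for Hdac2. Without TC + ATA replicate 1 or 3 it was 0.0811 and 0.0781 for Ep300, 0.0692 and 0.0576 for Ctbp1 and 0.0851 and 0.0784 for Hdac2. With a replicate block it was 0.205 for Ep300, 0.179 for Ctbp1, 0.136 for Hdac3 and 0.195 for Hdac2, and Ep300 was also lost with scaling by library size only (0.241) and with no filter on low counts (0.0578).

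The ERK5-MEF2 cascade is known to induce Klf2 and Klf4. Of its 7 genes, 1 was higher and 1 lower in TC versus EV (median 0.059), beside 14.8% and 13.2% of all tested genes. The transcription factor gene Mef2c fell by 1.39 on the log2 scale (SE 0.13, adjusted p = 7.54e-05). The kinase gene Map3k3 rose (0.32, adjusted p = 0.0149), a call lost with only EV and TC in the fit (0.185), with scaling by library size only (0.127), with a replicate block (0.105) and without TC + ATA replicate 2 (0.0509), in a range of 0.000313 to 0.185 over 13 alternatives. Map3k2, Map2k5, Mapk7 (the gene for ERK5), Mef2a and Mef2d were not called.

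Among 6 genes for ubiquitin ligase components reported to act on KLF proteins, 2 were higher and 2 lower in TC versus EV (median 0.045), beside 14.8% and 13.2% of all tested genes. Smurf1 rose by 0.58 (SE 0.07, adjusted p = 0.000430) and Wwp1, whose product ubiquitinates KLF5, rose by 0.42 (SE 0.09, adjusted p = 0.00608). Vhl fell by 0.44 (SE 0.10, adjusted p = 0.00925) and Btrc fell by 0.34 (SE 0.10, adjusted p = 0.0253). With only EV and TC in the fit the calls of Wwp1 (0.0585), Vhl (0.0845) and Btrc (0.175) were lost, and over 13 alternatives the adjusted p ran from 0.000252 to 0.0585, 0.00128 to 0.0845 and 0.00183 to 0.175. With a replicate block Vhl (0.0554) and Btrc (0.0994) were lost. Wwp1 was also lost with scaling by library size only (0.0540) and Btrc without TC + ATA replicate 1, 2 or 3 (0.0585, 0.0656 and 0.0554). Fbxw7 and Fbxo32 were not called.

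Of 8 glucocorticoid-responsive genes, 0 were higher and 1 lower in TC versus EV by edgeR (median -0.21), beside 14.8% and 13.2% of all tested genes; 0 were higher and 2 lower at an unadjusted p under 0.05 (19.4% and 19.0% of all), and 0 higher and 1 lower by DESeq2 (14.6% and 12.7%). That gene was the clock gene Per1 (log2 fold change -0.44, SE 0.09, adjusted p = 0.00662), which lost its call with only EV and TC in the fit (0.0582, in a range of 0.000511 to 0.0582 over 13 alternatives). The receptor gene Nr3c1 and Fkbp5, Tsc22d3, Sgk1, Zbtb16, Mt1 and Mt2 were not called.

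The 17 serum-induced early genes went both ways in TC versus EV, with 6 higher and 7 lower (median -0.16), beside 14.8% and 13.2% of all tested genes. Fos fell by 1.83 (SE 0.28, adjusted p = 0.00126) and Egr2 fell by 1.68 (SE 0.29, adjusted p = 0.00231) on the log2 scale. Atf3 rose by 1.76 (SE 0.22, adjusted p = 0.000418) and Fosb rose by 1.51 (SE 0.32, adjusted p = 0.00744). Fos also rose in TC + ATA versus TC by 1.93 (SE 0.27, adjusted p = 0.0194), the only call of the list there by edgeR (0.426% of all tested genes were called higher and 0.156% lower), while DESeq2 called 3 higher and 0 lower (1.27% and 0.453% of all). This call was lost without TC + ATA replicate 2 (0.0856) and TC + ATA replicate 3 (0.111), in a range of 8.57e-10 to 0.111 over 13 alternatives. Fos was at 5.91 and 7.82 CPM in EV, 1.93 CPM in TC and 5.84, 7.74 and 8.45 CPM in TC + ATA. Its fall and its rise thus share the single TC library. Between TC + ATA and EV the log2 fold change of Fos was 0.10 (adjusted p = 0.705 in edgeR). Klf10, also known as an early gene, was not called in TC versus EV, and neither were 4 of the 17.

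The TGF-β pathway list of 12 genes had 5 higher and 4 lower in TC versus EV (median -0.14), beside 14.8% and 13.2% of all tested genes. Among the ligands, Tgfb3 fell by 0.74 (SE 0.10, adjusted p = 0.000775), Tgfb1 fell by 0.71 (SE 0.13, adjusted p = 0.00434) and Tgfb2 rose by 0.50 (SE 0.13, adjusted p = 0.0218). The call of Tgfb2 was lost with only EV and TC in the fit (0.0690), with a replicate block (0.0617) and with scaling by library size only (0.0976), in a range of 0.00192 to 0.0976 over 13 alternatives. The signal transducer gene Smad3 fell by 0.44 (SE 0.09, adjusted p = 0.00605), a call lost with only EV and TC in the fit (0.0712, in a range of 2.87e-05 to 0.0712). The inhibitor Smad6 was the only call of the list by edgeR in TC + ATA versus TC (log2 fold change 0.73, SE 0.10, adjusted p = 0.0207), beside 0.426% of all tested genes called higher and 0.156% lower, and DESeq2 called 2 higher and 0 lower, beside 1.27% and 0.453%. The edgeR call was lost with a replicate block (0.117) and without TC + ATA replicate 1, 2 or 3 (0.118, 0.140 and 0.0937, in a range of 2.45e-05 to 0.140).

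Of 14 circadian clock genes, a group that Klf9, Klf10 and Klf15 are linked to, 3 were higher and 6 lower in TC versus EV (median -0.34), beside 14.8% and 13.2% of all tested genes. Hlf fell by 2.18 (SE 0.24, adjusted p = 0.000181) and Per2 fell by 0.92 (SE 0.20, adjusted p = 0.00877). Nr1d1 rose by 1.50 (SE 0.10, adjusted p = 1.08e-05) and Clock rose by 0.73 (SE 0.12, adjusted p = 0.00155). Of 9 tested adipogenic regulators, a setting in which Klf3, Klf5, Klf7 and Klf15 are studied, 1 was higher and 2 lower (median 0.14), beside the same shares. Lpl rose by 2.96 (SE 0.09, adjusted p = 1.62e-07), Cebpd fell by 2.33 (SE 0.11, adjusted p = 1.62e-06) and Cebpb fell by 0.86 (SE 0.16, adjusted p = 0.00400).

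Of 16 genes reported as KLF targets in various cells, 6 were higher and 1 lower in TC versus EV, beside 14.8% and 13.2% of all tested genes. The endothelin gene Edn1 rose by 3.56 (SE 0.30, adjusted p = 3.39e-05), the cyclin gene Ccnd1 by 1.96 (SE 0.09, adjusted p = 1.15e-06), Lgals3 by 1.38 (SE 0.13, adjusted p = 7.92e-05) and the growth factor gene Pdgfa by 1.35 (SE 0.08, adjusted p = 4.56e-06). The median of the list was 0.37, and that of all tested genes was -0.026. The list was not split by whether a KLF is reported to raise or to lower each gene. Its counts and median therefore do not measure KLF activity. The actin gene Acta2 was the only one called in TC + ATA versus TC (0.97, SE 0.15, adjusted p = 0.0303), beside 0.426% of all tested genes called higher and 0.156% lower. It lost the call with a replicate block (0.0719) and without TC + ATA replicate 1, 2 or 3 (0.153, 0.172 and 0.178, in a range of 7.43e-11 to 0.178 over 13 alternatives).

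Taken once each, the genes of these lists numbered 118, of which 108 were tested. The lists too were chosen with earlier results of these data known, so their counts are descriptive only. In TC versus EV 27 were higher and 28 lower, beside 14.8% and 13.2% of all tested genes, and in TC + ATA versus EV 35 were higher and 31 lower, beside 18.0% and 18.6%. In TC + ATA versus TC 3 were higher and 0 lower by edgeR (0.426% and 0.156% of all), 18 and 9 at an unadjusted p under 0.05 (5.65% and 3.95%), and 7 and 1 by DESeq2 (1.27% and 0.453%).

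RefSeq promoters (GRCm38.p6, 250 bases before to 50 after the gene start) were matched for 8 of the 10 genes and not for Klf5 and Klf10. Searched on both strands, the TEAD word GGAATG was in 0 of the 8, and in 14.7% of 32851 promoters. The KLF and SP word CACCC was in 6 of the 8 (not Klf4 and Klf6) and in 57.5% of all promoters, with 5 matches for Klf3. The AP-1 word TGANTCA was in 1 (Klf9) and in 7.81% of all. Neither the CRE word TGACGTCA (1.79% of all) nor the CArG box (1.63% of all) was in any of the 8. Their GC content was 58.3% to 76.7%, and the median of all promoters was 52.7%. A match or its absence describes these letters in this window only. The 250 bases before the RefSeq start are shown for Klf2 (chr8:72318812-72319061, plus strand) and Klf13 (chr7:63938916-63939165, minus strand), which rose together in TC, and for Klf12 (chr14:100149797-100150046, minus strand), the KLF gene that fell. Bases are in lower case, 5′ to 3′ on the strand of the gene, and capitals mark CACCC or its reverse complement and, in Klf12, also GGAATG; the marked words do not overlap. GENCODE places the first exon of Klf2 from position 72319033, so that its match lies inside that exon, and it has the outermost start of Klf12 at position 100284679, far upstream of the window.
Klf2: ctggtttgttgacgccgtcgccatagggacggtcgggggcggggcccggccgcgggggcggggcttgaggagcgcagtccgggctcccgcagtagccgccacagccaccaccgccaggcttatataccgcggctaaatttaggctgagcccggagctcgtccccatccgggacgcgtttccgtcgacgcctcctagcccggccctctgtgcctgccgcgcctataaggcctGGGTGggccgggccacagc
Klf13: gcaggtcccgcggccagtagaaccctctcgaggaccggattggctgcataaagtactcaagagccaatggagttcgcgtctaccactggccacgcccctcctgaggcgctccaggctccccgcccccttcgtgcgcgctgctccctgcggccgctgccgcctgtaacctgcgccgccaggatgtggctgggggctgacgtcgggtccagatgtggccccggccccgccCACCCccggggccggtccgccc
Klf12: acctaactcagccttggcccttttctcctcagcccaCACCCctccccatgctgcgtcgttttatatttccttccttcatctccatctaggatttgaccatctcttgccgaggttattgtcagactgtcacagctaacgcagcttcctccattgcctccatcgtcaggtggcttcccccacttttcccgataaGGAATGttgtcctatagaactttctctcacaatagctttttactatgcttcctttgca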

How the data were processed

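Per the labels and the paper, the authors selected poly(A) RNA, aligned paired-end reads to GRCm38.p6 with HISAT2 2.2.1 and counted them per gene (featureCounts). What they deposited are raw counts, and the strand setting and the release of the gene annotation are not given in the sources used here. Symbols, exon lengths and positions came from GENCODE M21. All 6 libraries entered 1 fit of edgeR 4.0.16 in R 4.3.3 (filterByExpr, TMM, glmQLFit, glmQLFTest, prior count 0.125), with Benjamini-Hochberg adjustment over all 18539 tested genes and calls at an adjusted p of at most 0.05. Standard errors came from the F statistic. DESeq2 1.42.0, other scalings and filters, a replicate block, fewer libraries and the limit of 2 served as alternatives. A prior count of 2, which changes no p, and the fit without TC, which repeats that of EV and TC + ATA alone, were run and are not counted among the 13. Named are all 10 genes, both fusion partners, of each list up to 4 called genes with the largest absolute log2 fold change, short lists in full, and for the largest increase the 3 genes of nearest pattern; the called fibroblast, endothelial and epithelial markers and Ckm were added after their values were seen. Members and lists were chosen with earlier results of these data known.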

Additional observations from a re-analysis of the deposited data

How the results depend on the processing

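Of the calls among the 10 genes, those of Klf2, Klf5, Klf6 and Klf13 against EV and of Klf4 in TC + ATA versus EV were kept in all alternatives run on fold changes. The log2 fold change of Klf3 in TC versus EV turned to -0.10 with scaling by library size only, -0.00345 with upper quartile scaling, -0.00312 with no filter on low counts and -0.035 without EV replicate 1, where its range with 1 replicate left out was -0.035 to 0.031. That of Klf15 turned positive without EV replicate 1, with ranges of -1.95 to 0.57 between TC and EV and -1.10 to 1.41 between TC + ATA and EV. Klf13 in TC + ATA versus TC turned to -0.011 without TC + ATA replicate 2, with a range up to 0.042. None of these was called. Library size scaling and upper quartile scaling moved the median of all genes in TC versus EV by -0.11 and -0.0082. Klf3, which stood at 0.0048 before, moved about as far. The cause of all these turns was not tested.

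With a replicate block, the log2 fold change of Klf7 in TC + ATA versus TC turned to -0.027. The replicate block gave 3184 genes called in TC versus EV (5191 without it) and 40 in TC + ATA versus TC (108 without it). Klf4 (adjusted p = 0.147) lost its call in TC versus EV, and Klf3 (0.222) and Klf7 (0.0841) lost theirs in TC + ATA versus EV. Only the numbers 1 and 2 are shared by EV and TC + ATA, and nothing shows that they mark pairs.

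In TC versus EV the number called lower among the 10 was 1 (Klf9) instead of 0 with scaling by library size only, with upper quartile scaling and with at least 1 CPM in 2 libraries, and 0 to 1 when 1 replicate was left out. For TC + ATA against EV it was 0 to 1 when 1 replicate was left out. In TC + ATA versus TC, with only the groups compared, 3 were called higher and 1 lower, and leaving out 1 replicate gave 0 to 3 higher and 0 to 1 lower. All genes called there numbered 320 with DESeq2, 1428 with only the groups compared, 350 with no filter on low counts and 10 to 1469 with 1 replicate left out. With an absolute log2 fold change above 2, the number called higher among the 10 was 0 against EV both for TC and for TC + ATA, and all genes called were 674 for TC against EV, 10 for TC + ATA against TC and 717 for TC + ATA against EV. Except for that limit, which drops genes by construction, the cause was not tested. All genes called in TC versus EV numbered 5231 with scaling by library size only, 5225 with upper quartile scaling and 5173 with at least 1 CPM in 2 libraries. For these settings and with 1 replicate left out, the share of all tested genes called in each direction is not given here. The counts among the 10 there thus have no such share beside them.

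Fits without 1 EV replicate leave EV with a lone library that is assumed to vary like the other groups, as TC is throughout. The effect of depth was not tested. In TC versus EV the SE was 0.14 for Klf2, with at most 13.8 CPM, and 0.080 for Klf4, with at least 77.9 CPM, and for Klf15, close to the floor, the interval ran from -3.60 to 1.26.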
